A study of Mus musculus with 8 samples.

Results

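The transcripts described here are those of 10 iron handling genes, Fth1, Ftl1, Ncoa4, Tfrc, Slc11a2, Trf, Slc11a1, Slc40a1, Cp and Ireb2, taken by gene symbol from the 22756 genes counted in each library. The 10 symbols correspond to 11 counted genes, since Trf has 2 entries. The members were chosen by symbol as a pathway, with earlier results of these libraries for genotype and smoke known, and no threshold on a measured value was used. The values below are therefore a description, and their p-values are not independent evidence that these genes differ between groups. The libraries came from the distal lung of adult male and female mice, more than 90% C57BL/6 by their labels, after lavage and depletion of CD45+ cells to enrich for epithelium. The control genotype, α7G, carries a tauGFP reporter behind an internal ribosome entry site in the gene of the nicotinic alpha 7 receptor (Chrna7). The α7E260A:G mouse carries the same reporter with the point mutation E260A, which limits the calcium signaling of the receptor. Mice of each genotype breathed side-stream cigarette smoke (CS) for 4 months, 5 days in each week, or room air (control), with 1 male and 1 female library in each of the 4 groups.

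The labels do not say how many mice entered a library, and 2 libraries per group give little measure of the spread between animals. Total counts on coding sequence (CDS) were 8020726 to 10944100 per library. Counts for Chrna7 were 0 in 7 libraries and 4 in the male α7E260A:G control, so that the targeted gene gives no check of the genotype labels. The male libraries held 520 to 882 counts of the Y-linked Ddx3y and the female libraries 0. Transcripts of Ptprc, which encodes CD45, were at 191 to 480 reads per 1000000 counts (RPM) and kilobase of CDS (RPKM), while Epcam, an epithelial marker, was at 83.1 to 225 RPKM. Ptprc was the higher of this pair in every library except the male α7G CS library, at 199 against 225 RPKM, although the fraction had been depleted of CD45+ cells. In a bulk library, fewer cells of a type and less RNA per cell cannot be told apart.

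Cells take up iron bound to transferrin (Trf) through the transferrin receptor (Tfrc), carry it across the endosomal membrane with the divalent metal transporter DMT1 (Slc11a2), store it in the shell of ferritin heavy (Fth1) and light (Ftl1) chains, and release it through ferroportin (Slc40a1). NCOA4 delivers ferritin to the lysosome for breakdown, and ceruloplasmin (Cp) is a copper ferroxidase that assists iron loading onto transferrin. When iron is scarce, the iron regulatory proteins, one of which is encoded by Ireb2, bind hairpins called iron-responsive elements (IRE), which blocks translation when the hairpin lies in the 5′ untranslated region (UTR) and stabilizes the transcript when it lies in the 3′ UTR. In the lung, alveolar macrophages are known for their ferritin stores, and Slc11a1 (NRAMP1) is a metal transporter of the macrophage phagosome.

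A search of the annotated UTRs for the IRE core CNNNNNCAGTGN, with the run of bases between the first C and CAGTGN pairing with the run that follows, found it in 4 of the members. The search read the transcript strand of the GENCODE M1 annotation and allowed G-T pairs. The sites are shown because they divide the members into transcripts whose translation and transcripts whose stability the regulatory proteins are known to act on. Capitals mark the bulged C and the first bases of the loop, positions are on the mm9 (NCBIM37) build, and each line reads 5′ to 3′ on the transcript strand.
Fth1, 5′ UTR, chr19:10057223-10057250, plus strand: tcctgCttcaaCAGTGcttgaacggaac
Ftl1, 5′ UTR, chr7:52715149-52715176, minus strand: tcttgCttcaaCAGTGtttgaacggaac
Slc40a1, 5′ UTR, chr1:45982310-45982337, minus strand: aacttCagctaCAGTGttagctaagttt
Tfrc, 3′ UTR, chr16:32631306-32631333, plus strand: attatCggaagCAGTGccttccataatt
Tfrc, 3′ UTR, chr16:32631685-32631712, plus strand: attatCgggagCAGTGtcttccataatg
Tfrc, 3′ UTR, chr16:32631750-32631777, plus strand: tatatCggagaCAGTGatctccatatgt
Tfrc, 3′ UTR, chr16:32631797-32631824, plus strand: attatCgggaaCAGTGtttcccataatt

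The same letters and pairing were found in 0.170% of the 18861 genes with an annotated 5′ UTR long enough to hold them and in 0.633% of 19761 genes with such a 3′ UTR. The sites of Fth1, Ftl1 and Slc40a1 each lie ahead of the coding sequence, and the 4 sites of Tfrc follow its coding sequence. The known 3′ UTR site of some Slc11a2 transcripts departs from this core and was not matched by the search. The deposited counts cover coding sequence only and carry no reading of the UTRs or of translation.

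Per length of coding sequence, the ferritin chains exceeded every other member by far. The mean level over the 8 libraries was 9382 ± 3419 RPKM for Fth1 and 1331 ± 556 RPKM for Ftl1 (SD, n = 8). Cp followed with 106 ± 27.8 RPKM. Next came Slc11a2 with 28.9 ± 4.16, Slc11a1 with 24.8 ± 10.6, Tfrc with 23.7 ± 8.41 and Ireb2 with 21.0 ± 5.79 RPKM, neighbours whose levels overlap between libraries. Slc40a1 with 16.1 ± 9.05, Ncoa4 with 12.5 ± 4.15 and Trf with 4.18 ± 1.02 RPKM were the lowest. In α7G control, Fth1 (chromosome 19) ranked 23 by RPM among the 22756 genes counted, Ftl1 (chromosome 7) ranked 269 and Cp (chromosome 3) ranked 270.

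**Figure D1:**
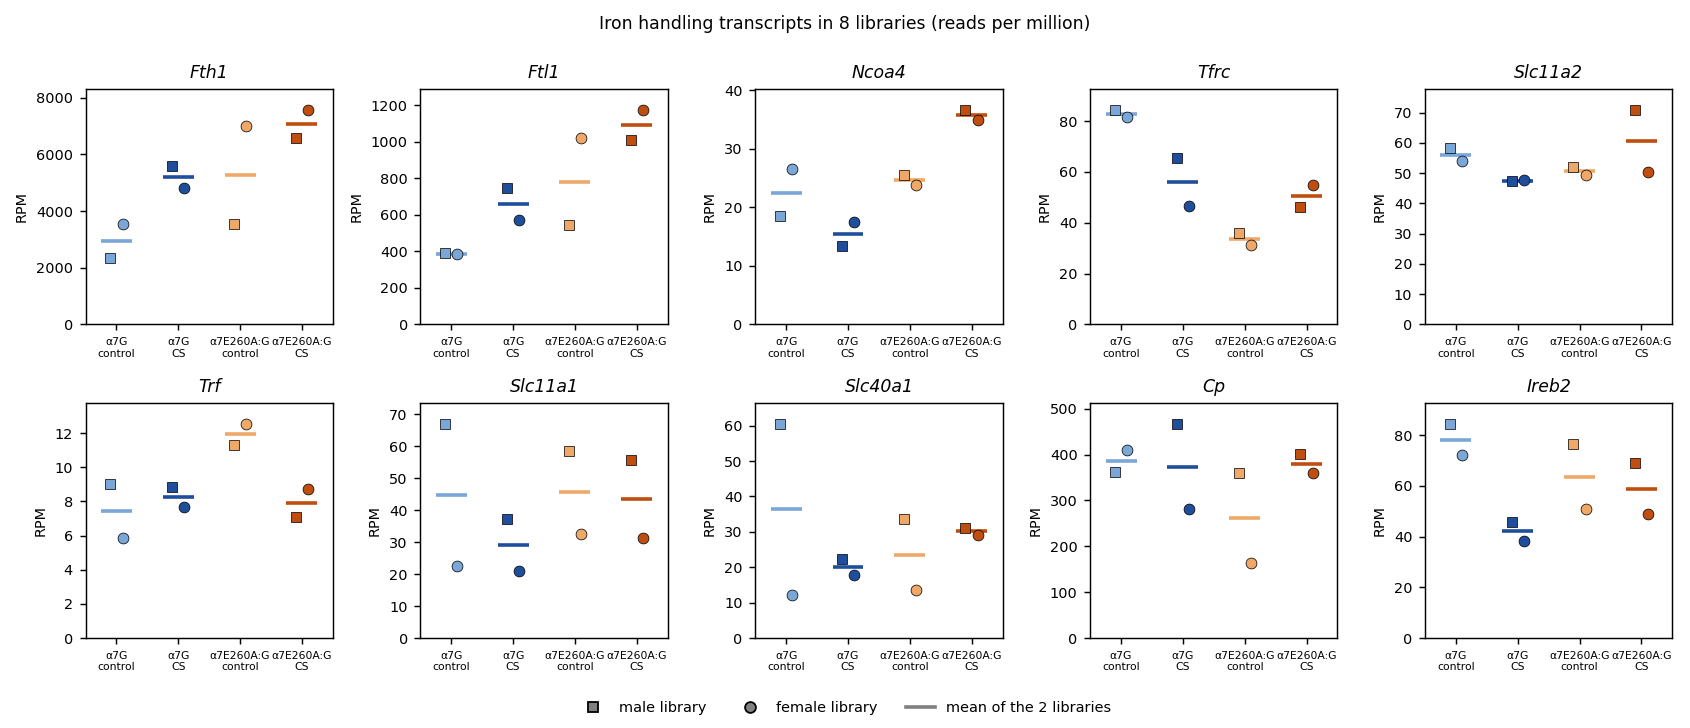
Level of each of the 10 iron handling transcripts in RPM (y axis, from 0, a different range in each panel) in the 4 groups, with squares for male libraries, circles for female libraries and a bar at their mean. Fth1 and Ftl1 were lowest in α7G control and highest in α7E260A:G CS, Tfrc was highest in α7G control, and the sexes lay far apart for Slc40a1 and Slc11a1 in α7G control.

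Ferritin transcripts were higher in α7E260A:G than in α7G of the same sex and exposure, and higher after CS than in the control of the same sex and genotype, in every one of these pairs. Fth1 in α7G was at 2358 RPM in the control male, 3558 in the control female, 5582 in the CS male and 4831 in the CS female library. In α7E260A:G, Fth1 was at 3536 RPM in the control male, 6987 in the control female, 6575 in the CS male and 7552 in the CS female library. The male α7E260A:G control thus had no more Fth1 than the female α7G control and less than both α7G CS libraries, and the ranges of the genotypes overlapped.

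The light chain followed the heavy chain. Ftl1 in α7G was at 390.3 and 383 RPM in the control male and female libraries and at 749 and 574 RPM after CS. In α7E260A:G it was at 546 and 1019 RPM in the control male and female libraries and at 1011 and 1172 RPM after CS. Again the male α7E260A:G control lay within the range of α7G, and the other libraries of its genotype lay above it. The number of Fth1 counts per Ftl1 count was 6.04 to 9.29, and both chains together took between 0.275% and 0.872% of the counts of a library. Of the coding sequence of Ftl1, 100% is also held by 5 near-identical copies elsewhere in the genome (identity up to 99.6%), so that its count may be short of reads that were not placed uniquely. None was found for Fth1.

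As ratios, Fth1 after CS was 2.37 and 1.36 times the control in the male and female α7G libraries and 1.86 and 1.08 times in the male and female α7E260A:G libraries. For Ftl1 these ratios were 1.92, 1.50, 1.85 and 1.15. Both chains were higher with CS in 4 of 4 pairs, as were 13.1% of the 7195 genes tested. Between genotypes, Fth1 in α7E260A:G was 1.50 and 1.96 times its α7G level in the male and female controls and 1.18 and 1.56 times after CS. The corresponding ratios of Ftl1 were 1.40, 2.66, 1.35 and 2.04. Fth1 and Ftl1 were the only members higher in α7E260A:G in 4 of 4 pairs by RPM, where 7.84% of all genes tested were, and Ncoa4 joined them when libraries were scaled by TMM, where 11.4% of all genes were. The pairs of a comparison of exposures share libraries with those of the genotypes, so that these counts are not separate evidence.

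**Figure D2:**
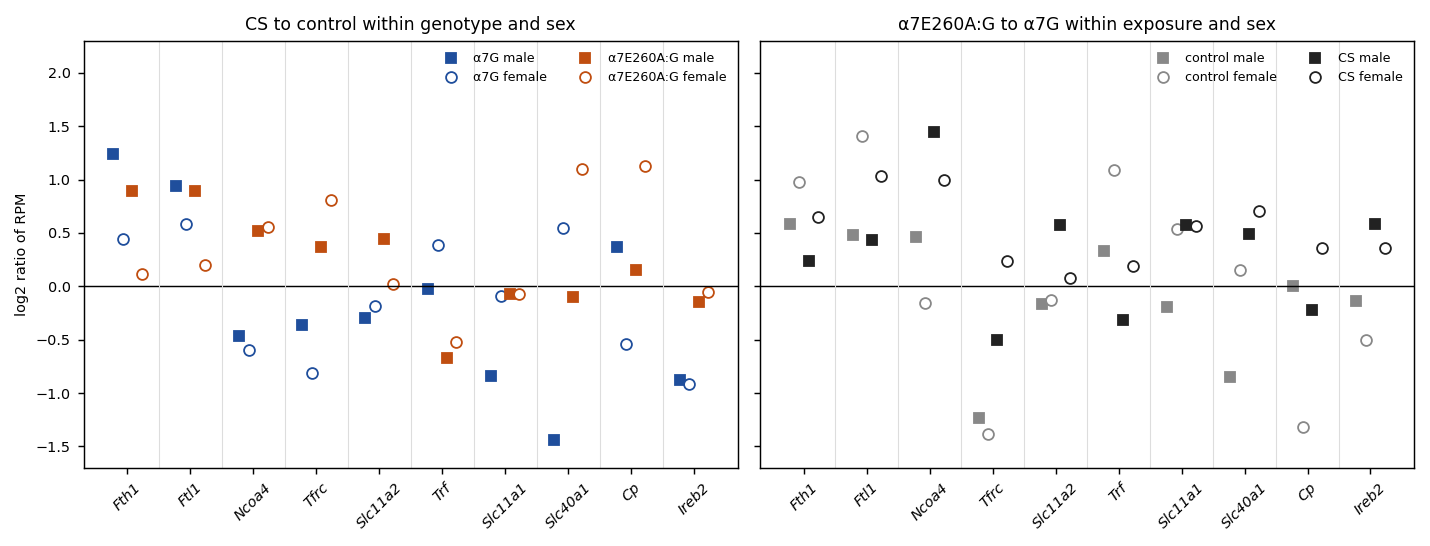
Log2 ratio of RPM within each pair of same-sex libraries (y axis) for the 10 transcripts, for CS to control (left) and α7E260A:G to α7G (right), with squares for males and circles for females. Fth1 and Ftl1 lie above 0 in all pairs of both panels, Ireb2 and Slc11a1 lie below 0 in all pairs for CS, and Ncoa4, Tfrc and Slc11a2 lie below 0 in α7G and above it in α7E260A:G.

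A test of the counts with edgeR (quasi-likelihood, TMM, 4 groups, Benjamini-Hochberg over 7195 genes, threshold 0.05) placed neither chain past the threshold. In α7E260A:G against α7G over both exposures, the log2 fold change was 0.74 ± 0.34 (SE) for Fth1 with an adjusted p of 0.48, and 0.97 ± 0.30 for Ftl1 with an adjusted p of 0.225. For CS over both genotypes it was 0.60 ± 0.34 for Fth1 and 0.62 ± 0.29 for Ftl1, with adjusted p of 0.655 and 0.638. The response to CS was 0.93 for Fth1 and 0.90 for Ftl1 in α7G and 0.28 and 0.34 in α7E260A:G, and the difference between these responses had an adjusted p of 0.997 for both. The male α7E260A:G control decided several of these values. Without it, Ftl1 passed the threshold between genotypes, with a log2 fold change of 1.19 and an adjusted p of 0.0379, as did 1.71% of all genes tested, and the CS response in α7E260A:G turned to -0.21 for Fth1 and -0.13 for Ftl1. Without the female control of that genotype the same responses were 1.12 and 1.12.

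The libraries also differed by the length of the coding sequence, and the ferritin chains, with 546 bases for Fth1 and 549 for Ftl1, are among the short ones. The slope of a library's log2 deviation from the mean library ranged from -0.24 to 0.41 per doubling of CDS length. In α7G it was 0.23 and 0.06 in the control male and female libraries and -0.24 and -0.20 after CS. Short transcripts as a group thus read higher after CS in this genotype. In α7E260A:G the slope was 0.41 and -0.24 in the control male and female libraries and 0.19 and -0.20 after CS. The male control of this genotype was thus the library in which short transcripts read lowest. With each library's trend removed by an offset, the CS response of Fth1 in α7G was 0.40 and that of Ftl1 was 0.33. In α7E260A:G these responses were 0.35 and 0.40 with the offset. The difference between the genotypes' responses was then -0.05 for Fth1 and 0.06 for Ftl1, with edgeR adjusted p of 0.993 and 0.988. The genotype difference stayed at 0.71 ± 0.15 for Fth1 and 0.94 ± 0.13 for Ftl1, and both then passed edgeR's threshold, with adjusted p of 0.0271 and 0.00775. With the trend removed, Fth1 was at 2862 to 4440 RPM in α7G and 4947 to 7514 RPM in α7E260A:G, and Ftl1 at 399 to 597 and 762 to 1154 RPM, ranges that no longer overlapped. Fth1 in the male and female α7E260A:G controls was at 4947 and 5685 RPM with the trend removed, against 3536 and 6987 RPM before. On the scale with the trend removed, 6.88% of all genes were higher in α7E260A:G without overlap. Under that offset 6.63% of all genes tested passed between genotypes.

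**Figure D3:**
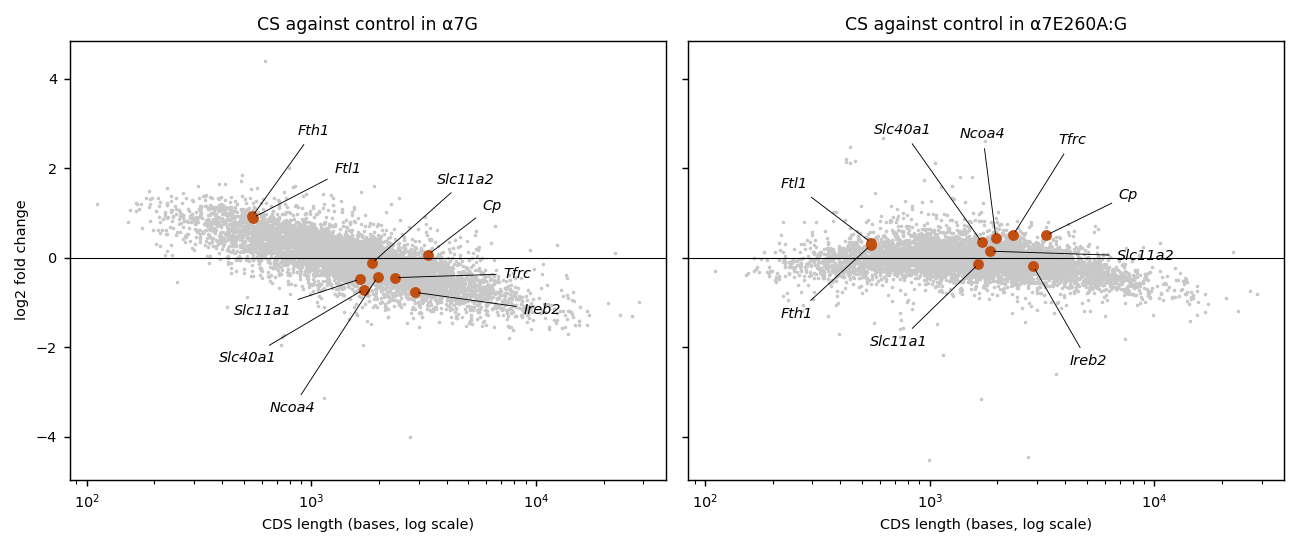
Log2 fold change of CS against control (y axis) against CDS length in bases (x axis, log scale) for all genes tested (grey) and the 9 members tested (orange), in α7G (left) and α7E260A:G (right). In α7G the cloud slopes downward, with Fth1 at 0.93 and Ftl1 at 0.90 among short genes and Ireb2 at -0.77 among longer ones, while in α7E260A:G the cloud is flatter.

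The summed alveolar macrophage markers were higher in α7E260A:G and after CS in every pair of same-sex libraries, as the ferritin chains were. All 20 markers of a list of this cell type, none of them at 0, had a higher mean log2 level in α7E260A:G, and their summed level was 22848 to 32713 RPM in α7G and 40637 to 67516 RPM in α7E260A:G. Of 10 markers of alveolar type II (ATII) cells, 0 were higher in α7E260A:G, with sums of 20899 to 31492 RPM in α7G and 5816 to 15928 RPM in α7E260A:G. Of 6 markers shared by leukocytes, 4 were higher in α7E260A:G, and their sums overlapped, at 5764 to 7680 RPM in α7G and 5813 to 7290 RPM in α7E260A:G. Of the 20 macrophage markers, 12 had a higher mean log2 level with CS, with a median difference of 0.18. So did 7 of 8 general epithelial markers (median 0.45), 8 of 9 fibroblast and smooth muscle markers (0.26) and 6 of 8 alveolar type I markers (0.17). A rise with CS was thus not particular to the macrophage list. The macrophage sum was higher after CS in every pair, as were the sums of these other lists. In α7G it was 22848 and 29039 RPM in the control male and female libraries and 27268 and 32713 RPM after CS, and in α7E260A:G it was 40637 and 64487 RPM in the controls and 50719 and 67516 RPM after CS. The part of cell composition in the ferritin levels, between genotypes or with CS, was not tested.

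**Figure D4:**
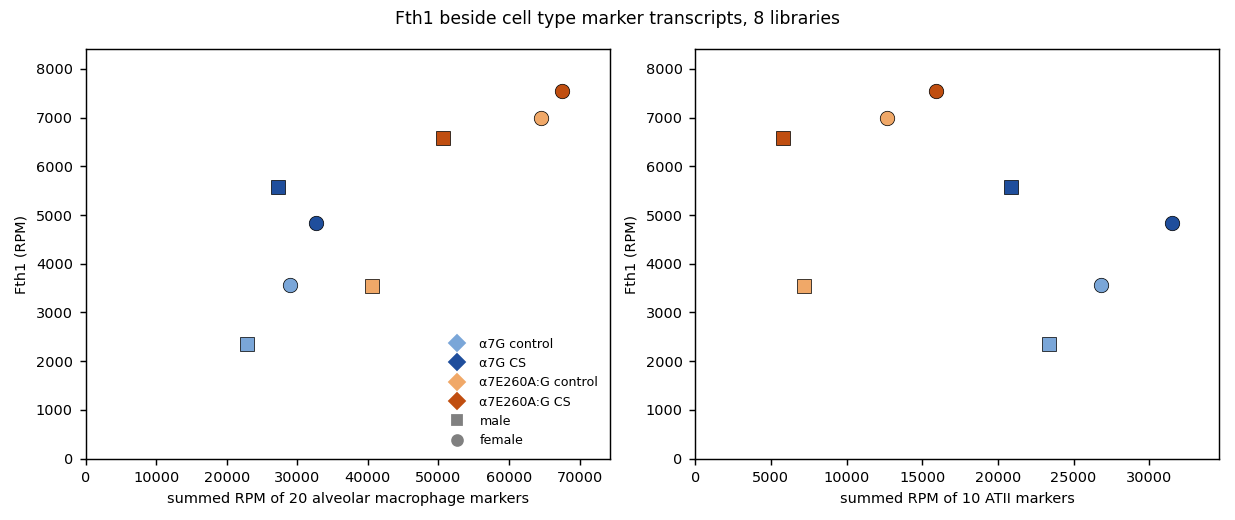
Fth1 in RPM (y axis) against the summed RPM of 20 alveolar macrophage markers (left x axis) and of 10 ATII markers (right x axis), 1 point per library, with colour for group and shape for sex. The 4 α7E260A:G libraries lie to the right of the α7G libraries for macrophage markers and to the left for ATII markers, and the male α7E260A:G control has the lowest Fth1 of its genotype at 3536 RPM.

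Ncoa4 (chromosome 14), the receptor that carries ferritin to the lysosome, had higher levels in α7E260A:G after CS than in any other group. In α7G it was at 18.5 and 26.5 RPM in the control male and female libraries and at 13.4 and 17.5 RPM after CS. The α7E260A:G controls were at 25.5 and 23.8 RPM and the CS libraries of this genotype at 36.5 and 35.0 RPM. Only the female α7G control, at 26.5 RPM, reached into the range of α7E260A:G. By edgeR the log2 fold change between genotypes was 0.73 ± 0.21, with an adjusted p of 0.192. DESeq2 gave the same difference an adjusted p of 0.034 and passed it, among 5.93% of all genes tested. The CS ratios were 0.72 and 0.66 in α7G males and females and 1.43 and 1.47 in α7E260A:G, and the difference between the responses, 0.88 ± 0.42, had an adjusted p of 0.997. The whole coding sequence of Ncoa4 is repeated in 1 copy of 99.9% identity, so that its level may be understated.

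Tfrc (chromosome 16), the receptor that takes up transferrin, was highest in α7G control and lowest in α7E260A:G control. It was at 84.2 and 81.8 RPM in the α7G control male and female libraries and at 65.6 and 46.7 RPM after CS. In α7E260A:G it was at 35.8 and 31.3 RPM in the controls and at 46.3 and 54.9 RPM after CS. In the controls the ratios of α7E260A:G to α7G were 0.43 and 0.38, whereas after CS these ratios were 0.70 and 1.17. Over both exposures the log2 fold change was -0.66 ± 0.19, with an edgeR adjusted p of 0.189 and a DESeq2 adjusted p of 0.0358. The response to CS was -0.44 in α7G and 0.52 in α7E260A:G, and the difference of 0.96 ± 0.37 had an unadjusted p of 0.0351 and an adjusted p of 0.997 by edgeR. Tfrc is also abundant in red cell precursors, whose summed markers reached 9381 RPM in the male α7E260A:G CS library against 198 to 2176 RPM in the others. Their part in the Tfrc levels was not tested.

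Slc11a2 (chromosome 15), which moves iron out of the endosome, varied least among the members. It was at 58.2 and 54.0 RPM in the α7G control male and female libraries and at 47.4 and 47.6 RPM after CS. Levels in α7E260A:G were 51.9 and 49.4 RPM in the controls and 70.7 and 50.3 RPM after CS. The value of 70.7 RPM stood apart and came from the library with the high sum of red cell markers, whose part in it was not tested. The log2 fold changes were 0.16 ± 0.15 between genotypes and 0.02 ± 0.15 for CS.

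Trf (chromosome 9), which encodes transferrin itself, was the lowest of the members and too low to be tested. Its counts were 55 to 137 per library, above the floor of 3 counts, with a mean of 80 against the minimum of 200 for testing. The levels were 9.02 and 5.87 RPM in the α7G control male and female libraries, 8.84 and 7.67 after CS, 11.3 and 12.5 in the α7E260A:G controls, and 7.11 and 8.74 after CS in that genotype. Both α7E260A:G controls lay above the other 6 libraries. Of the CDS of Trf, 94.9% is shared with a second annotated model of the same symbol, listed at 0 in all libraries, so that reads assigned to neither model may be missing and the level is uncertain.

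Slc11a1 (chromosome 1), the phagosomal metal transporter, was higher in the male than in the female library of every group. It was at 66.9 and 22.5 RPM in the α7G control male and female libraries, at 37.4 and 21.1 RPM after CS, at 58.6 and 32.7 RPM in the α7E260A:G controls and at 55.6 and 31.2 RPM after CS. The ratios of CS to control were 0.56, 0.94, 0.95 and 0.95, all below 1 but 3 of them close to it. Without the male α7G control, the log2 CS response in α7G went from -0.47 to 0.46.

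Of the iron exporters, ferroportin (Slc40a1, chromosome 1) had the widest spread between libraries of a group. It was at 60.4 and 12.3 RPM in the α7G control male and female libraries and at 22.2 and 17.9 RPM after CS. In α7E260A:G it was at 33.5 and 13.6 RPM in the controls and at 31.2 and 29.2 RPM after CS. The α7G control male library held the highest and the female of the same group the lowest value of all, and no direction held across the pairs. Without that male library the log2 CS response in α7G went from -0.71 to 0.79.

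Cp, the ferroxidase, was at 361 and 409.8 RPM in the α7G control male and female libraries and at 466 and 281 RPM after CS. The α7E260A:G libraries were at 361 and 164 RPM in the controls and at 400.2 and 359 RPM after CS. The female α7E260A:G control stood below all others, and the remaining libraries of both genotypes overlapped. The log2 fold changes were -0.23 ± 0.24 between genotypes and 0.29 ± 0.24 for CS, with edgeR adjusted p of 0.825 and 0.733. Its CDS of 3308 bases is the longest of the members, and with the length trend removed the CS value was 0.59 ± 0.20, with an adjusted p of 0.443.

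Ireb2 (chromosome 9), which encodes iron regulatory protein 2, had lower levels after CS in every pair of same-sex libraries. It was at 84.3 and 72.3 RPM in the α7G control male and female libraries and at 46.0 and 38.2 RPM after CS. In α7E260A:G it was at 76.4 and 51.0 RPM in the controls and at 68.9 and 49.0 RPM after CS. The ratios of CS to control were 0.55 and 0.53 in α7G and 0.90 and 0.96 in α7E260A:G. By edgeR the log2 fold change was -0.77 ± 0.22 in α7G with an adjusted p of 0.588, and -0.48 ± 0.15 over both genotypes with an adjusted p of 0.63. A fit of the 4 α7G libraries alone passed it, with an adjusted p of 0.0324, but that fit passed 16.1% of all genes tested. The difference between the genotypes' responses was 0.59 ± 0.31, with an adjusted p of 0.997. Ireb2 has a CDS of 2889 bases, and with the length trend removed its response in α7G was -0.43.

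**Figure D5:**
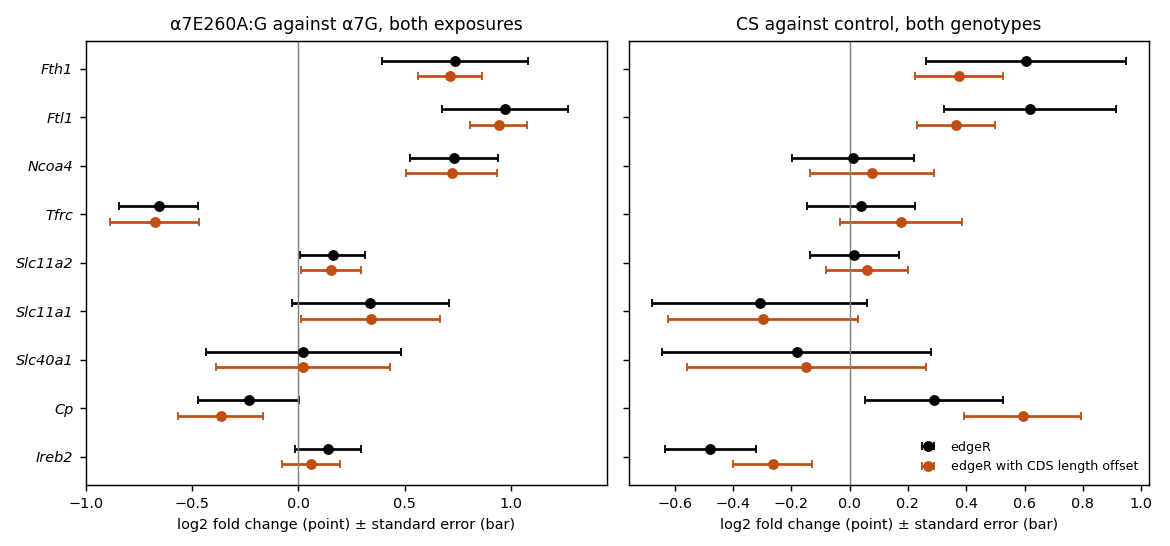
Log2 fold change (points) and standard error (bars) of the 9 members tested, for α7E260A:G against α7G (left) and CS against control (right), from edgeR without (black) and with (orange) an offset for CDS length. The offset narrows the bars of Fth1 and Ftl1 and leaves their genotype values near 0.74 and 0.97, while their CS values go from 0.60 and 0.62 to 0.37 and 0.36.

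Across the group, 9 of the 10 members passed the filter on low counts. By edgeR, 0 of these 9 passed the adjusted threshold in any of the 5 comparisons. Of all genes tested, 0.0834% passed between genotypes, and 0% passed for CS in α7G, for CS in α7E260A:G, for CS over both genotypes and for the difference between the CS responses. At an unadjusted p under 0.05 there were 3 members between genotypes (Ftl1, Ncoa4 and Tfrc), 1 for CS in α7G and 1 for CS over both genotypes (Ireb2 in each), 1 for the difference (Tfrc) and 0 for CS in α7E260A:G. The corresponding numbers over all genes were 854 between genotypes, 487 for CS in α7G, 545 for CS over both genotypes, 104 for the difference and 121 for CS in α7E260A:G. DESeq2 passed 3 members between genotypes (Ftl1, Ncoa4 and Tfrc) among 427 genes, and none of the members in the other comparisons, where it passed 26, 39, 3 and 11 genes in the same order.

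The median log2 fold change of the members was 0.16 between genotypes, beside 0.04 over all genes tested, and 0.02 for CS, beside -0.00. In α7G the median response of the members to CS was -0.43, with 3 of 9 above 0, and in α7E260A:G it was 0.34, with 7 of 9 above 0, beside medians of -0.02 and -0.04 over all genes. Of all genes tested, 48.3% were above 0 for CS in α7G and 44.4% in α7E260A:G. These comparisons share the same libraries between them, and the members differ in CDS length.

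None of the 9 members had 4 libraries of a genotype that all lay above those of the other, where 2.99% of genes tested did so upward in α7E260A:G and 5.14% downward. Separation is easier with a library left out, and each such count stands beside the share of all genes separated in the same direction. Without the male α7E260A:G control there were 2 members higher in α7E260A:G (Fth1 and Ftl1), beside 4.60% of genes, and without the female α7G control there was 1 (Ncoa4), beside 3.39%. Tfrc was lower in α7E260A:G without overlap when the female α7G CS or the female α7E260A:G CS library was left out, beside 6.96% and 7.52% of genes. Likewise none separated CS from control, where 1.65% of genes did so upward and 0.417% downward. Without the female α7E260A:G control there were 3 such members, Fth1 and Ftl1 upward, beside 6.12% of genes, and Ireb2 downward, beside 7.34%. Without the male α7E260A:G CS library there was 1 (Ireb2, downward), beside 5.62%. Lower with CS in 4 of 4 pairs were 2 members (Ireb2 and Slc11a1), beside 12.1% of all genes, and 0 members when the length trend was removed. Lower in α7E260A:G in 4 of 4 pairs were 0 members, beside 15.0% of genes tested.

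A wider list of 80 iron genes, set up with the members in it, had 76 in the files and 44 that passed the filter on low counts. By edgeR 0 of the 44 passed the threshold between genotypes and 0 for CS. Leaving out the members, 35 were tested, of which 20 had a positive log2 fold change between genotypes (median 0.04) and 26 for CS (median 0.17), where 56.1% and 49.5% of all genes tested did. With the members included, positive values for CS were found for 12 of 13 tested genes that make, move or degrade heme, for 9 of 11 of mitochondrial iron and iron-sulfur clusters, for 5 of 5 of ferritin storage and for 4 of 5 of iron import. They were found for 0 of 4 genes of iron sensing, 0 of 2 of the hepcidin pathway, 1 of 2 of export and 1 of 2 other secreted iron-binding proteins. Median log2 fold changes for CS were 0.32 for heme, 0.09 for mitochondrial iron, 0.23 for ferritin storage and 0.02 for import. For sensing, the hepcidin pathway, export and the secreted proteins they were -0.18, -0.26, 0.05 and -0.02. Signs were counted whatever the size, so that Ncoa4 (0.01), Slc11a2 (0.02) and Tfrc (0.04) counted as positive. The fold changes of the wider list, here and for the genes named from it, are from edgeR without the CDS length offset. The part of CDS length in these counts and medians was not tested.

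Of the 44, 1 gene was higher and 1 lower in α7E260A:G without overlap, where 2.99% and 5.14% of all genes were, and 2 were higher with CS without overlap, where 1.65% of all genes were. Hmox1, the heme oxygenase that frees iron from heme, was at 121 and 103 RPM in the α7G control male and female libraries and 118 and 115 RPM after CS, and at 169.8 and 169 RPM in the α7E260A:G controls and 179.5 and 178 RPM after CS. Its log2 fold change between genotypes was 0.68 ± 0.15, with an edgeR adjusted p of 0.124. Ciao1, of cytosolic iron-sulfur assembly, was at 54.4 to 65.3 RPM in α7G and at 50.5 to 54.1 RPM in α7E260A:G, with a log2 fold change of -0.10 ± 0.18.

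Blvrb, which encodes biliverdin reductase B, was at 37.5 to 64.0 RPM in the 4 controls and at 72.4 to 141 RPM in the 4 CS libraries. Its log2 fold change for CS was 0.90 ± 0.32, with an edgeR adjusted p of 0.63. Slc48a1, which carries heme out of the lysosome, was at 28.0 to 31.8 RPM in the controls and at 33.7 to 48.5 RPM after CS, with a log2 fold change of 0.44 ± 0.20 and the same adjusted p. Neither passed the threshold. Levels and fold changes of both genes are without removal of the length trend, and the part of CDS length in them was not tested.

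The genes whose log2 levels were most like those of a member over the 8 libraries are given as a description, since all share the libraries, their depth and the length trend. For Fth1 these were 0610031J06Rik (Pearson r of 0.979), Creg1 (0.970) and Nagk (0.969). For Ftl1 they were Lgals3 (0.985), Atp6v0c (0.973) and Akr1a4 (0.973). The chains themselves had an r of 0.94 with each other. For Ncoa4 they were Pparg (0.965), Prkar2b (0.948) and Rilpl2 (0.944), and for Tfrc Wdr36 (0.984), Ddx50 (0.980) and Strbp (0.954). Ireb2 was nearest to Ppp2r5c (0.996), Dmxl1 (0.990) and Rsf1 (0.990), of which Dmxl1 has a CDS of 9075 bases.

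Nearest to Cp were Psmd1 (0.973), Arfip1 (0.970) and Zfp7 (0.955), and nearest to Slc11a1 were Rasa4 (0.965), Btk (0.957) and Clec4a1 (0.952). Slc40a1 was nearest to Usf1 (0.958), Icosl (0.950) and Cxcr2 (0.930), and Slc11a2 to Vps4b (0.957), Clk4 (0.950) and Pcmtd1 (0.921). Between members other than the ferritin chains, the highest r was 0.834, of Slc40a1 with Slc11a1.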

How the data were processed

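RNA-Seq was analysed from 8 libraries. Per the paper and the labels, the authors prepared stranded poly-adenylated libraries, aligned reads with STAR to mm9 and counted CDS reads with htseq-count and GENCODE M1. These raw counts are what was deposited, with no scaling applied. Versions and counting options are not given in the sources used here. The members and gene lists were chosen with earlier results of these data known. The named genes were the members, the iron genes whose libraries did not overlap between genotypes or exposures, and the 3 genes most correlated with each member.

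RPM were computed from the total counts (3 counts equal 0.274 to 0.374 RPM, counting error only), and RPKM from GENCODE CDS length. Of the genes whose counts averaged 200 or more, 7195 were tested, after removal by name of immunoglobulin, histocompatibility, Gm and ribosomal protein genes, with edgeR 4.0.16 (glmQLFTest, TMM, R 4.3.3, limma 3.58.1) in a model of the 4 groups, with a dispersion of 0.0765. The script was tested on simulated data. Likeness used log2(RPM + 0.5). The length offset was a lowess fit (span 0.667) per library. Near-identical CDS copies were sought with blastn 2.17.0. Other alternatives were DESeq2 1.42.0, other scalings and filters, sex as a block, single-genotype fits and leaving out each library. The paper drew mice from independent replicate experiments, but nothing says which of them gave which library. Each group held 1 male and 1 female library, and the main model had no term for sex. Its p-values thus measure the spread between these libraries, which includes any difference between the sexes.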

Additional observations from a re-analysis of the deposited data

Results flagged for a closer look

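For 3 members, both sexes had lower levels after CS in α7G and higher levels after CS in α7E260A:G. The difference of the log2 CS response, α7E260A:G minus α7G, was 0.96 for Tfrc, 0.88 for Ncoa4 and 0.27 for Slc11a2. The interaction term of edgeR gave each an adjusted p of 0.997, so that these differences did not pass the test. An opposite direction of this kind, either way round, was found in 993 of the 7195 genes tested (13.8%). With the CDS length trend removed, the pattern held for Ncoa4, while the male α7G ratio of Tfrc was 0.07 and the female α7E260A:G ratio of Slc11a2 was -0.04 on the log2 scale.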

How the results depend on the processing

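The number of members past the threshold was 0 in all 5 comparisons and stayed 0 with library size scaling, median-of-ratios scaling and both other gene filters. It was 3 in the fit of the α7G libraries alone for CS (Fth1, Ftl1, Ireb2), which passed 16.1% of all genes. Between genotypes it was 3 with DESeq2 (5.93% of all genes), 2 with the CDS length offset (6.63%), 3 with the replicate block and the offset together (Fth1, Ftl1, Ncoa4, adjusted p 0.0155, 0.00407, 0.0166, with 9.38% of all genes), and 0 to 1 when each library was left out. The replicate block alone (sex) gave 0 members in each comparison. Same-sex libraries deviated together with r of 0.538, 0.550 and 0.837 in the pairs among α7G control, α7E260A:G control and α7E260A:G CS. In the pairs with α7G CS, r was -0.096 to 0.168. As not all groups shared it, sex was not taken as a pairing in the main model. The ratios and the counts of pairs did use same-sex libraries. Members not overlapping were 2 between genotypes with the length trend removed (6.88% of all genes upward and 5.74% downward), 0 to 2 when each library was left out, and 0 to 3 between exposures. Members lower with CS in 4 of 4 pairs were 0 with the trend removed, an alternative chosen after seeing the data.

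Directions turned only for values that did not pass. With library size scaling, these were Slc40a1 between genotypes (-0.033), CS over both genotypes for Tfrc (-0.0083), Slc11a2 (-0.016) and Ncoa4 (-0.026), and CS in α7G for Cp (-0.028). With the offset, the difference of the CS responses of Ftl1 was 0.061, and 0.054 with the block and offset, where Slc40a1 for CS was 0.011. Leaving out 1 library, the CS response in α7E260A:G ranged from -0.21 to 1.12 for Fth1, from -0.13 to 1.12 for Ftl1, from -0.045 to 0.91 for Slc40a1 and from -0.48 to 0.14 for Slc11a1. In α7G it ranged from -1.40 to 0.79 for Slc40a1, from -1.01 to 0.46 for Slc11a1 and from -0.32 to 0.38 for Cp. The difference of the responses ranged from -1.15 to 0.19 for Fth1, from -1.04 to 0.22 for Ftl1, from -0.45 to 1.75 for Slc40a1 and from -0.60 to 0.87 for Slc11a1. CS over both genotypes ranged from -0.53 to 0.57 for Slc40a1, from -0.090 to 0.15 for Tfrc, from -0.57 to 0.16 for Slc11a1, from -0.052 to 0.10 for Slc11a2 and from -0.12 to 0.20 for Ncoa4, and Slc40a1 between genotypes from -0.35 to 0.77. The cause was not tested. Of the other values of single members, 688 kept direction and side of the threshold and 12 passed it. An arm left with 1 library was assumed to vary like the other groups.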
